A study of Mus musculus with 22 samples.

Results

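The genes described here are 37 members of the glycolysis and hypoxia response of mouse microglia, taken by symbol from a list of 38. Ero1l, the 38th, was not analysed here. The 37 stood among 15725 gene symbols, and all of them passed the filter on low values that kept 11070 genes. RNA was sequenced from microglia, the resident macrophages of the brain, in 22 libraries of 5 groups. The cells came from the cortex of C57BL/6 pups aged 1 to 3 days, were grown with mixed glia for 8 to 10 days and were then shaken off. Every group received lipopolysaccharide (LPS), a bacterial cell wall component, at 100 ng/ml for 24 h. LPS (n = 3) had nothing else, LPS+Baf A1 (n = 5) also had 10 nM bafilomycin A1, which blocks the proton pump of lysosomes, and LPS+CLA (n = 6) also had 50 nM CLA. LPS+siAtg5 (n = 5) was transfected for 48 h with 50 nM siRNA against Atg5, a gene needed to form autophagosomes. LPS+dNC (n = 3) was also transfected for 48 h, without Atg5 siRNA, and is its comparator in the design text. The labels spell out neither CLA nor dNC, and no culture without LPS was analysed here.

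Glycolysis breaks glucose down to pyruvate in the cytosol. When pyruvate is turned into lactate and exported, the pathway can run fast without mitochondrial respiration, and macrophages and microglia activated by LPS are known to rely on it. Many of its genes, together with genes for mitophagy, angiogenesis and collagen modification, are targets of the hypoxia-inducible factor HIF, whose alpha subunit is marked for destruction by oxygen-dependent prolyl hydroxylases.

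Values are FPKM, fragments scaled by gene length and by the mapped fragments of the library, so levels of different genes can be set side by side. Changes are differences of log2(FPKM + 1) from limma, called at a Benjamini-Hochberg adjusted p under 0.05 over all genes tested. Summed FPKM ranged from 469750 to 575125 and no library's depth was given. Atg5 itself was at 12.59 to 13.51 FPKM in LPS+siAtg5 against 21.36 to 24.26 in LPS+dNC and 19.83 to 20.41 in LPS. The 14 microglia markers summed to 3251 to 5279 FPKM, with a few abundant genes such as Csf1r making up much of it, and several defining markers were low. Tmem119 averaged 1.77 to 5.95 FPKM over the groups, P2ry12 3.15 to 8.49 and Gpr34 at most 0.256. Csf1r averaged 869 FPKM in LPS and 153 in LPS+dNC, and Cx3cr1 7.79 and 0.177. In LPS+dNC against LPS, 8 of 13 markers tested fell and 3 rose, beside 28.1% and 29.0% of all genes. The 14 astrocyte markers summed to 349.4 to 407.4 FPKM in LPS+siAtg5 and to 5.9 to 27.8 in the 17 other libraries, with Gfap at 126 FPKM there. Summed neuron markers (60.1 to 75.2 against 0.9 to 17.8), oligodendrocyte lineage markers (101.8 to 107.2 against 61.8 to 92.8) and fibroblast, mural and endothelial markers (94.8 to 127.4 against 9.7 to 32.6) were higher in the same 5 libraries. Cnp, at 69.6 FPKM there and 75.4 in LPS+dNC, made up much of the oligodendrocyte sum. Acta2 (47.7 FPKM), Col1a1 (21.1) and Col1a2 (16.5) made up much of the last sum. Of the endothelial markers, Kdr averaged 1.16 FPKM against 2.74 in LPS+dNC and 12.1 in LPS. Pecam1 averaged 2.51 against 2.59 in LPS+dNC, and Cdh5 2.44 against 1.93. In an earlier analysis of these data LPS replicate 3, LPS+dNC replicate 1 and LPS+CLA replicate 2 lay apart from their groups. Unlike the others, the 3 LPS+dNC columns are deposited with no unit in the header, and Rps6, a ribosomal protein gene, stood at 9.16 FPKM there against 368 in LPS. The family did not share this: 86 ribosomal protein genes summed to 17866.6 to 21157.9 FPKM there and 15586.8 to 18637.5 in LPS. Processing and group therefore cannot be told apart for LPS+dNC. In bulk RNA, more cells of a type and more RNA per cell cannot be told apart either.

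With Baf A1, transcripts of nearly the whole route from glucose to exported lactate were higher than with LPS alone. Of 37 members 28 rose and 1 fell, while 57.8% of all genes tested were called, 32.7% higher and 25.1% lower. The libraries of the 2 groups did not overlap for 30 members on the higher side and 1 on the lower, against 30.8% and 21.9% of all genes. The median change of the members was 0.86, against 0.04 over all genes. Of the 14 genes for the 10 enzyme steps from glucose to pyruvate 13 rose, and the exception was the hexokinase gene Hk3. With CLA, 30 members rose and 2 fell, against 63.1% of all genes called, 40.4% higher and 22.6% lower, and the median was 1.0 against 0.09. Of the calls over all genes, 64.1% were higher with CLA, but 49.4% under median-of-ratios scaling. With CLA 30 members lay wholly above LPS and 1 wholly below, against 32.7% and 18.9% of all genes. Baf A1 and CLA were compared with the same 3 LPS libraries, so their changes are not independent of each other.

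**Figure D1:**
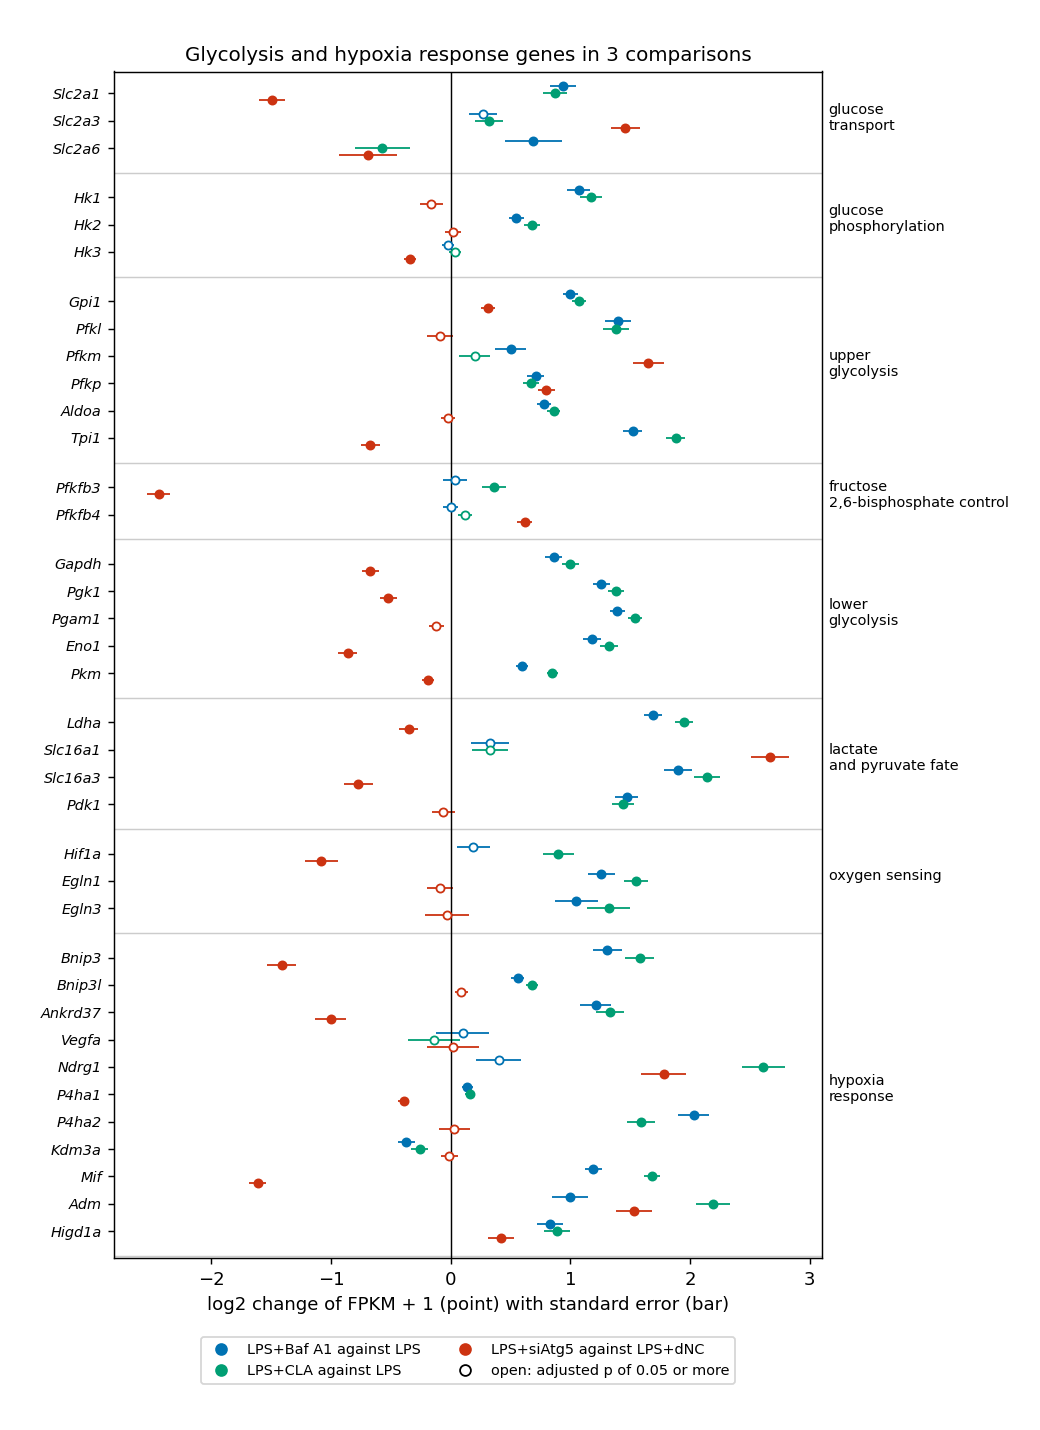
Each row is a gene and each point its log2 change of FPKM + 1 with its standard error, for LPS+Baf A1 against LPS (blue), LPS+CLA against LPS (green) and LPS+siAtg5 against LPS+dNC (red). Filled points were called. Blue and green points lie mostly to the right of 0, while red points lie on both sides, from -2.44 for Pfkfb3 to 2.67 for Slc16a1.

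HIF binds DNA at a core of the letters ACGTG or GCGTG, and promoters of 7 members are printed to show where this core occurs. Both letter sequences were searched on both strands in the 250 bases before each RefSeq start (GRCm38.p6). A palindrome CACGTG counts as a match on either strand, in overlapping positions. Matches were present in 77.6% of 49 promoters of 34 members, whether these rose or not, in 55.6% of promoters of all genes tested and in 38.6% of all promoters of that length. The windows of the members hold a median of 14 CpG, close to the 16 of all genes tested and above the 6 of all promoters. The 7 windows below hold no base of an annotated exon and run 5′ to 3′ on the strand of the gene, with matches in capitals. Of these, 5 come from genes that rose with both compounds (Ldha, Pgam1, Pgk1, P4ha2 and Adm), Mif rose without a match, and Slc16a1 holds matches but did not pass the test with either compound.
Ldha: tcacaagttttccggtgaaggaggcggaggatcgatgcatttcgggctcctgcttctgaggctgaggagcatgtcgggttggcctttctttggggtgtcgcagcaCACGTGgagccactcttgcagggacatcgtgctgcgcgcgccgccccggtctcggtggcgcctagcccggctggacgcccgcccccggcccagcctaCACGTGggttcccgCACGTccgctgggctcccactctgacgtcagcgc
Pgam1: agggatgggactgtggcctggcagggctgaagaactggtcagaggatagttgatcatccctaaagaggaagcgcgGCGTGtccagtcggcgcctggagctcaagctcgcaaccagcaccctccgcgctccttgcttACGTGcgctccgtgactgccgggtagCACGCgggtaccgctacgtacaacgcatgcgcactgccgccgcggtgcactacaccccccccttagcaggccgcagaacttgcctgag
Pgk1: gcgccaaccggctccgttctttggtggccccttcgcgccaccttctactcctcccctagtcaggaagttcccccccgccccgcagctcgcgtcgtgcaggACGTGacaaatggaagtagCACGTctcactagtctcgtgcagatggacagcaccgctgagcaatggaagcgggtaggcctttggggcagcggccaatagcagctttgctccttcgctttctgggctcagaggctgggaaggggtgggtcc
P4ha2: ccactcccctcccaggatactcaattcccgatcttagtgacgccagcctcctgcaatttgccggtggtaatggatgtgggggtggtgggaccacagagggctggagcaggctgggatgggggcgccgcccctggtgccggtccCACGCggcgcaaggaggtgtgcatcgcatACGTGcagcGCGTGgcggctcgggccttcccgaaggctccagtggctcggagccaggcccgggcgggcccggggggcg
Adm: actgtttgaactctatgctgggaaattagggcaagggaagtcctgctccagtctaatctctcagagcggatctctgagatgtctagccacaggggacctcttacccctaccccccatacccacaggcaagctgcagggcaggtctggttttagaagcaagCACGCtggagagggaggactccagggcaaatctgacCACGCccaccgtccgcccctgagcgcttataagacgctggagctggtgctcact
Mif: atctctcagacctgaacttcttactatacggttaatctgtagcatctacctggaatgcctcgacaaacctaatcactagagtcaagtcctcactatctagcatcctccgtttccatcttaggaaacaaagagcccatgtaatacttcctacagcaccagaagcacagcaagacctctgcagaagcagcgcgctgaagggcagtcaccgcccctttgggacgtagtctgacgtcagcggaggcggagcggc
Slc16a1: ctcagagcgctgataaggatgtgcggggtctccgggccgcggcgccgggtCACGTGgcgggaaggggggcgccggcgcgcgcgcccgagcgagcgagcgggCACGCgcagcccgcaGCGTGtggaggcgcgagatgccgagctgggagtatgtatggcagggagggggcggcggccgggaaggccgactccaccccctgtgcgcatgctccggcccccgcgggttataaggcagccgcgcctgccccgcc
They lie at chr7:46845554-46845803 (Ldha, plus strand), chr19:41911621-41911870 (Pgam1, plus), chrX:106186850-106187099 (Pgk1, plus), chr11:54100674-54100923 (P4ha2, plus), chr7:110627407-110627656 (Adm, plus), chr10:75860278-75860527 (Mif, minus) and chr3:104638414-104638663 (Slc16a1, plus). The Ldha window has 5 matches, of which 4 belong to 2 palindromes, the farthest at 145 bases before the start. The Pgam1 and P4ha2 windows have 3 each, Pgk1 and Adm 2 each and Slc16a1 4. A match is a description of these letters and not a binding site.

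Glucose enters through transporters, and their genes responded unequally. Slc2a1 (chr4:119108711-119137983 on GRCm38), which encodes the ubiquitous transporter GLUT1, was at 35.59, 35.52 and 47.02 FPKM in LPS and at 77.06, 79.38, 71.69, 74.39 and 76.55 FPKM with Baf A1. With CLA it ran from 67.52 over a median of 69.5 to 88.17 FPKM. The groups did not overlap, and the changes were 0.94 (SE 0.11, limma adjusted p = 1.12e-07) with Baf A1 and 0.87 (SE 0.1, adjusted p = 1.43e-07) with CLA. Slc2a6, which encodes GLUT6, a transporter found on lysosomal membranes, went in opposite directions. Its values were 53.23, 51.71 and 59.65 FPKM in LPS and 85.68 to 92.31 with Baf A1 (0.69, adjusted p = 0.0166), but 31.72 to 35.16 in 5 of 6 CLA libraries and 57.51 in replicate 2 (-0.57, adjusted p = 0.0359). Leaving out LPS replicate 1, 2 or 3 ended the CLA call (adjusted p = 0.0717, 0.061 and 0.113), as did the replicate block (-0.51, adjusted p = 0.104) and leaving out CLA replicate 1, 3, 4, 5 or 6 (0.0527 to 0.0633). The Baf A1 call ended without LPS replicate 1 (0.0518) or 2 (0.0559). CLA against Baf A1, which needs no LPS library, gave -1.26 (SE 0.20, adjusted p = 1.63e-05). Slc2a3, for the high-affinity transporter GLUT3, stayed at or below 1.31 FPKM in the LPS, Baf A1 and CLA groups. It was called with CLA (0.32, adjusted p = 0.0218), but not without LPS replicate 3 (0.17, adjusted p = 0.239), without CLA replicate 3 (0.27, 0.05), with array weights (0.2, 0.0737), with the replicate block (0.33, 0.0534) or without the 3 libraries that lie apart (0.2, 0.106).

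Among the hexokinases, which trap glucose by phosphorylation, the 2 lowly expressed genes rose and the dominant one did not. Hk1 went from 15.57, 17.11 and 17.45 FPKM to 33.67 to 38.75 with Baf A1 (1.07, SE 0.095, adjusted p = 2.53e-09) and to 35.03 to 51.16 with CLA (1.17, adjusted p = 2.21e-10). Hk2, the form known to be inducible, rose less, by 0.55 and 0.68. Hk3 averaged 187 ± 5.33 FPKM (SD, n = 3) in LPS, 184 ± 7.34 (n = 5) with Baf A1 and 192 ± 4.97 (n = 6) with CLA, with overlapping libraries and 95% intervals of the change from -0.06 to 0.15 for CLA. Hk3 made up 81.7% ± 1.0 of the summed hexokinase FPKM in LPS but 71.5% ± 1.0 and 70.6% ± 2.4 with the 2 compounds.

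The middle of the pathway rose step by step. Gpi1, which converts glucose 6-phosphate to fructose 6-phosphate, rose from 146 ± 17.1 to 292 ± 10.3 FPKM with Baf A1 (1.0) and to 306 ± 8.08 with CLA (1.07). Phosphofructokinase, the committed step, is encoded by 3 genes. The liver form Pfkl (chr10:77986947-78010083) was at 25.18, 29.75 and 23.13 FPKM in LPS and at 63.02 to 75.56 with Baf A1 (1.4, SE 0.11, adjusted p = 6.31e-10), and CLA gave 59.89 to 78.97 FPKM (1.38, adjusted p = 2.62e-10). Pfkp, the platelet form, rose by 0.71 and 0.67, and Pfkm, the muscle form, by 0.50 with Baf A1 (adjusted p = 0.00217) against 0.20 with CLA (adjusted p = 0.183). Aldolase A (Aldoa) rose by 0.78 and 0.86. Tpi1, which interconverts the 2 triose phosphates, was at 166.51, 170.56 and 213.11 FPKM in LPS and 645.23 to 728.62 with CLA, a change of 1.88 (SE 0.077, adjusted p = 3.05e-15) that exceeded the 1.52 of Baf A1. No library of the 2 treated groups overlapped LPS for Gpi1, Pfkl, Pfkp, Aldoa or Tpi1.

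In contrast, the enzymes that set fructose 2,6-bisphosphate, the main activator of phosphofructokinase, barely moved with Baf A1. Pfkfb3 was at 92.98, 95.0 and 72.5 FPKM in LPS and 85.06 to 90.33 with Baf A1 (0.04, adjusted p = 0.746, 95% interval -0.17 to 0.26), and Pfkfb4 at 8.87 to 10.21 against 9.08 to 9.87. With CLA, Pfkfb3 lay between 96.95 and 105.88 FPKM in 5 libraries and at 155.08 in replicate 2 (0.36, adjusted p = 0.00401). That call did not hold under median-of-ratios scaling (0.22, adjusted p = 0.0928) or with LPS replicate 3 left out (0.23, adjusted p = 0.0629).

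All 5 genes of the lower, ATP-yielding part of the pathway rose with both compounds. Gapdh went from 1347.17, 1360.98 and 1787.56 FPKM to 2642 to 2789 with Baf A1 (0.86) and 2851 to 3095 with CLA (1.0). Pgk1, the first ATP-forming enzyme, rose by 1.26 and 1.38, Pgam1 by 1.39 and 1.54, Eno1 by 1.18 and 1.32, and the pyruvate kinase gene Pkm by 0.60 and 0.85. Pgam1, for example, was at 179.82, 168.22 and 215.05 FPKM in LPS, 468.94 to 515.6 with Baf A1 and 523.87 to 601.36 with CLA. Several of these genes have near-identical copies in the genome, so their values are uncertain: 53.9% of the 50-base words of Pgk1 occur in other annotated transcripts, 36.2% of Pgam1, 26.0% of Eno1, 25.8% of Pkm and 25.1% of Gapdh. Pfkl, with 0.0%, and Tpi1, with 4.2%, are less affected.

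Lactate genes showed the widest rises of the pathway. Ldha (chr7:46841475-46855627), the lactate dehydrogenase subunit that favours lactate formation, was at 277.62, 271.11 and 319.81 FPKM in LPS and at 1045.77 to 1212.32 (median 1112) with CLA, a change of 1.95 (SE 0.075, adjusted p = 1.23e-15) beside 1.69 with Baf A1. Slc16a3 (chr11:120948480-120960868), which encodes the lactate exporter MCT4, was at 37.95, 40.99 and 46.6 FPKM in LPS, 157.66, 167.72, 150.29, 157.4 and 158.41 with Baf A1, and 176.82 to 228.17 with CLA. Its changes were 1.90 (SE 0.12, adjusted p = 9.81e-12) and 2.14 (SE 0.11, adjusted p = 3.46e-13), and no libraries overlapped. Slc16a1, for the related transporter MCT1, was low, at 2.22 to 2.97 FPKM in LPS, 3.27 to 3.65 with Baf A1 and 3.11 to 4.87 with CLA, and was not called (0.33 with both, adjusted p = 0.0811 and 0.0629) although the libraries did not overlap. It was called higher with both in fits of the compared groups alone (adjusted p = 0.0067 and 0.033), with array weights, without the 3 libraries that lie apart and without LPS+dNC replicate 1 or 3, and with CLA without LPS replicate 3 (0.42, adjusted p = 0.0465). Pdk1, the kinase that shuts pyruvate dehydrogenase and so keeps pyruvate out of mitochondria, rose from 5.08 to 5.66 FPKM in LPS to 16.38 to 17.18 with Baf A1 (1.47, adjusted p = 1.03e-11) and 15.75 to 17.25 with CLA (1.44).

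**Figure D2:**
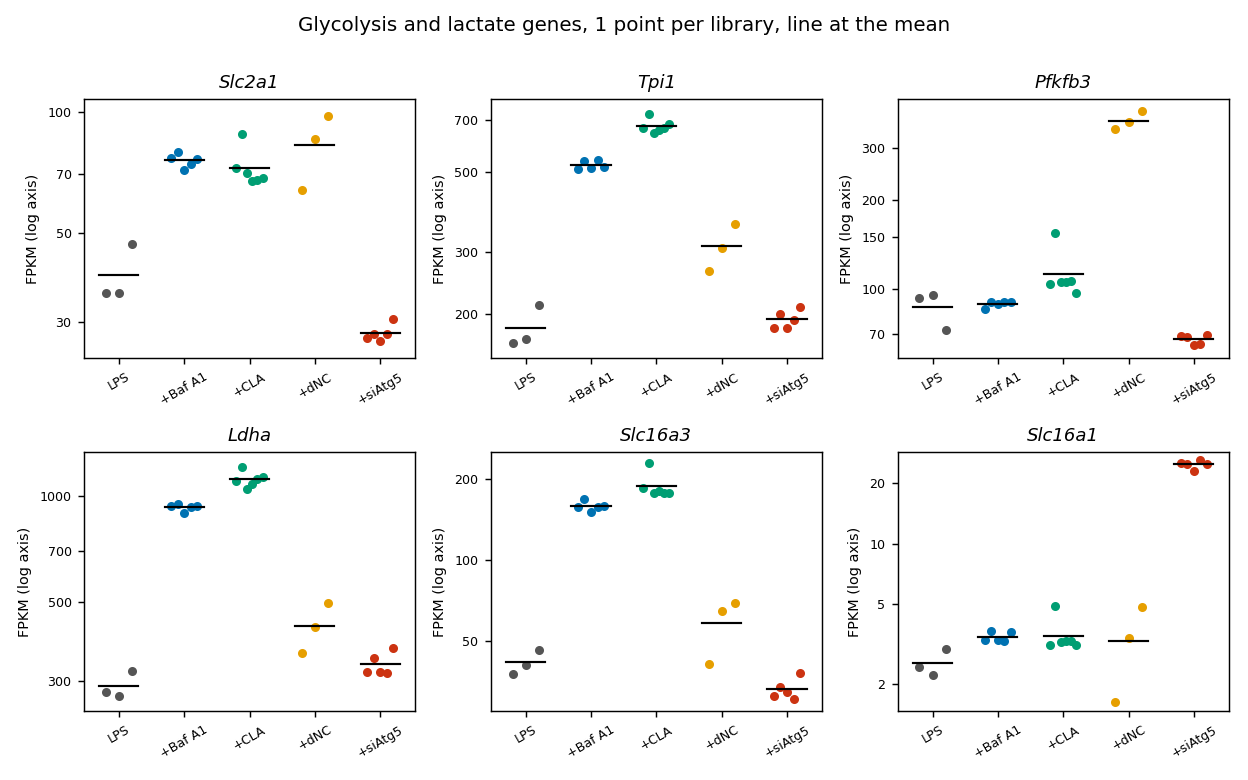
Each panel shows 1 gene, with FPKM on a log axis, 1 point per library and a line at the group mean. Ldha and Slc16a3 separate the Baf A1 and CLA libraries from the rest, Pfkfb3 is highest in LPS+dNC (347 to 399 FPKM), and Slc16a1 is highest in LPS+siAtg5 (23.07 to 25.96 FPKM).

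The oxygen-sensing genes differed between the 2 compounds at Hif1a. Hif1a (chr12:73901375-73947530), the oxygen-regulated subunit of HIF, was at 79.46 to 85.81 FPKM in LPS and 88.99 to 101.64 with Baf A1, which was not called (0.19, SE 0.14, adjusted p = 0.263) although the libraries did not overlap. The Baf A1 change was called in a fit of the 2 groups alone (0.19, adjusted p = 0.00987), with array weights (0.21, 0.0071) and without the 3 libraries that lie apart (0.21, 0.00361). With CLA it lay at 143.33 to 149.03 FPKM in 5 libraries and at 210.75 in replicate 2 (0.90, SE 0.13, adjusted p = 4.21e-06). The prolyl hydroxylase genes, which act on the HIF protein and are themselves HIF targets, rose with both. Egln1 rose from 6.11 to 7.05 FPKM in LPS to 15.75 to 17.65 (1.26) and 20.58 to 22.08 (1.55). Egln3 rose from 0.80 to 0.83 FPKM to 2.51 to 3.10 (1.05, adjusted p = 3.92e-05) and 3.24 to 3.85 (1.32, adjusted p = 9.26e-07).

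Of the 11 further hypoxia response genes, 8 rose and 1 fell with Baf A1, and 9 rose and 1 fell with CLA, beside 32.7% and 25.1% of all genes with Baf A1 and 40.4% and 22.6% with CLA. P4ha2 (chr11:54100095-54131665), an alpha subunit of the enzyme that hydroxylates collagen, changed most with Baf A1. It was at 1.45, 1.65 and 1.56 FPKM in LPS and at 9.71, 9.85, 8.43, 9.33 and 9.78 with Baf A1 (2.03, SE 0.13, adjusted p = 9.46e-12), but reached only 6.38 to 7.43 with CLA (1.59). Its paralog P4ha1, at 81.5 FPKM in LPS, was called higher by 0.14 and 0.16, and both calls were lost under median-of-ratios scaling (adjusted p = 0.227 and 0.841). The mitophagy receptor genes Bnip3 and Bnip3l rose by 1.31 and 0.56 with Baf A1 and by 1.58 and 0.68 with CLA, with Bnip3 at 45.55 to 56.02 and 58.31 to 70.3 FPKM against 17.13 to 22.66 in LPS. Of Bnip3, 47.2% of the sequence is shared and 22.3% of its exons overlap an antisense gene, so its value is uncertain. Of Bnip3l, 20.8% of the sequence is shared. Ankrd37, an ankyrin repeat gene, rose by 1.21 and 1.33, with 26.4% of its exons under antisense genes. Higd1a, a mitochondrial protein gene, rose by 0.83 and 0.89, with 24.4% of its sequence shared and 22.5% of its exons under an antisense gene.

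Mif, the cytokine macrophage migration inhibitory factor, rose by 1.19 with Baf A1 and 1.68 with CLA, from 105.52 to 141.59 FPKM in LPS to 261.41 to 285.2 and 363.69 to 399.18, with 50.9% of its sequence shared. Adm, which encodes the vasodilator adrenomedullin, rose by 1.0 and 2.19, from 2.55 to 4.04 FPKM to 6.73 to 9.15 and 17.51 to 20.44. Ndrg1 (chr15:66929318-66969640), a stress response gene, was at 0.65, 0.65 and 2.14 FPKM in LPS and 1.36 to 2.11 with Baf A1 (0.40, adjusted p = 0.0754), but at 12.11 to 13.34 in 5 CLA libraries and 6.49 in replicate 2 (2.61, SE 0.18, adjusted p = 4.45e-11). Without LPS replicate 3 the Baf A1 change was 0.71 and was called (adjusted p = 0.00136). Vegfa, the angiogenic factor, did not pass the test with either compound, at 1.5 to 1.72, 1.2 to 3.02 and 0.55 to 1.88 FPKM. The histone demethylase gene Kdm3a fell, from 13.79 to 16.31 FPKM to 10.84 to 11.88 with Baf A1 (-0.37, adjusted p = 0.000102) and 11.41 to 13.01 with CLA (-0.26, adjusted p = 0.00178).

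**Figure D3:**
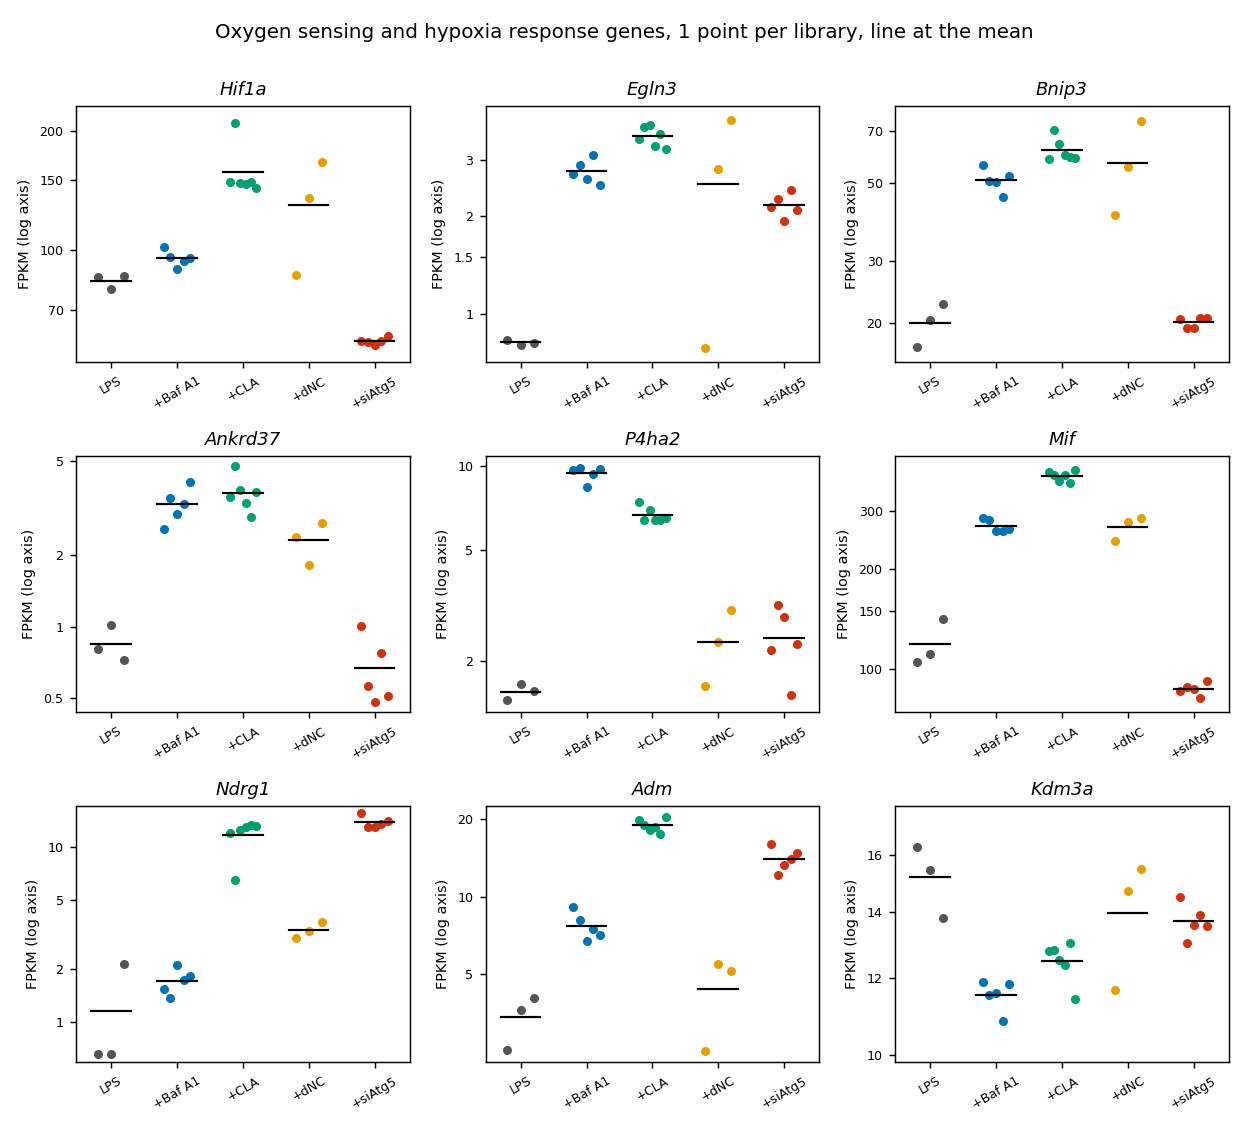
Each panel shows 1 gene of oxygen sensing or the hypoxia response, with FPKM on a log axis, 1 point per library and a line at the group mean. P4ha2 is highest with Baf A1, Mif and Adm are highest with CLA, and Ndrg1 is high in CLA and LPS+siAtg5. LPS+dNC replicate 1 is the lowest of its group for every gene shown except Ankrd37.

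The 2 compounds were also compared with each other, on libraries that exclude LPS alone. CLA libraries were higher than Baf A1 libraries for 14 members and lower for 3, against 54.3% of all genes called, 35.4% higher and 19.0% lower, and 20 did not pass the test. The median of the members was 0.12, against 0.06 over all genes, and the 65.1% of calls that were higher became 51.1% under median-of-ratios scaling, where 9 members were higher. The libraries were separate for 17 members on the higher side and 2 on the lower, against 24.5% and 15.1%. Apart from Slc2a6, the widest gaps were in the hypoxia response. Ndrg1 was higher with CLA by 2.21 (SE 0.16, 95% interval 1.88 to 2.54, adjusted p = 1.27e-10), Adm by 1.2 (adjusted p = 2.82e-08), Hif1a by 0.71 (adjusted p = 1.67e-05) and Mif by 0.50 (adjusted p = 2.51e-07). P4ha2 was lower with CLA, by -0.44 (SE 0.11, adjusted p = 0.00123). Within glycolysis the differences were small: Tpi1 was 0.36 higher with CLA, Ldha 0.26 and Pkm 0.25. Slc2a1 (-0.07, interval -0.25 to 0.11), Pfkl (-0.02, -0.22 to 0.17), Pdk1 (-0.03, -0.19 to 0.13) and Higd1a (0.06, -0.13 to 0.25) did not pass the test. The call of 7 of the 17 was lost under at least 1 alternative (Bnip3, Bnip3l, Egln1, Hk2, Pfkm, Pgam1 and Slc16a3).

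The Atg5 siRNA group did not share the rise. Against LPS+dNC, 16 members were lower and 9 higher in LPS+siAtg5, while 81.2% of all genes were called, 21.6% lower and 59.6% higher. The libraries were separate for 13 members on the lower side and 9 on the higher, against 19.8% and 57.2% of all genes. The median of the members was -0.09, against 0.34 over all genes, so on the deposited scale the members stood 0.43 below the median gene. The median over all genes was 0.06 with libraries scaled by median of ratios and -0.02 when normalized by quantiles. Under median-of-ratios scaling 25 members were lower, and 54.1% of all calls were then higher in place of 73.4% (49.1% under quantile normalization). Against LPS, the members gave 8 lower and 20 higher, against 76.8% of all genes called, 15.6% lower and 61.2% higher, with a median of 0.18 against 0.31 (0.01 under median-of-ratios scaling, where 50.8% of all calls were higher in place of 79.7%). Here 6 members lay wholly below LPS and 15 wholly above, against 13.6% and 57.2%. Of these calls, 15 of 28 were lost or turned under at least 1 alternative. LPS+dNC itself differed from LPS, with 24 members higher and 1 lower against 57.2% of all genes called, 29.0% higher and 28.1% lower. There 16 members were separate on the higher side and 1 on the lower, against 27.5% and 26.1%. Ldha and Pgk1 were called in opposite directions against the 2 controls. The 2 comparisons share the LPS+siAtg5 libraries.

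**Figure D4:**
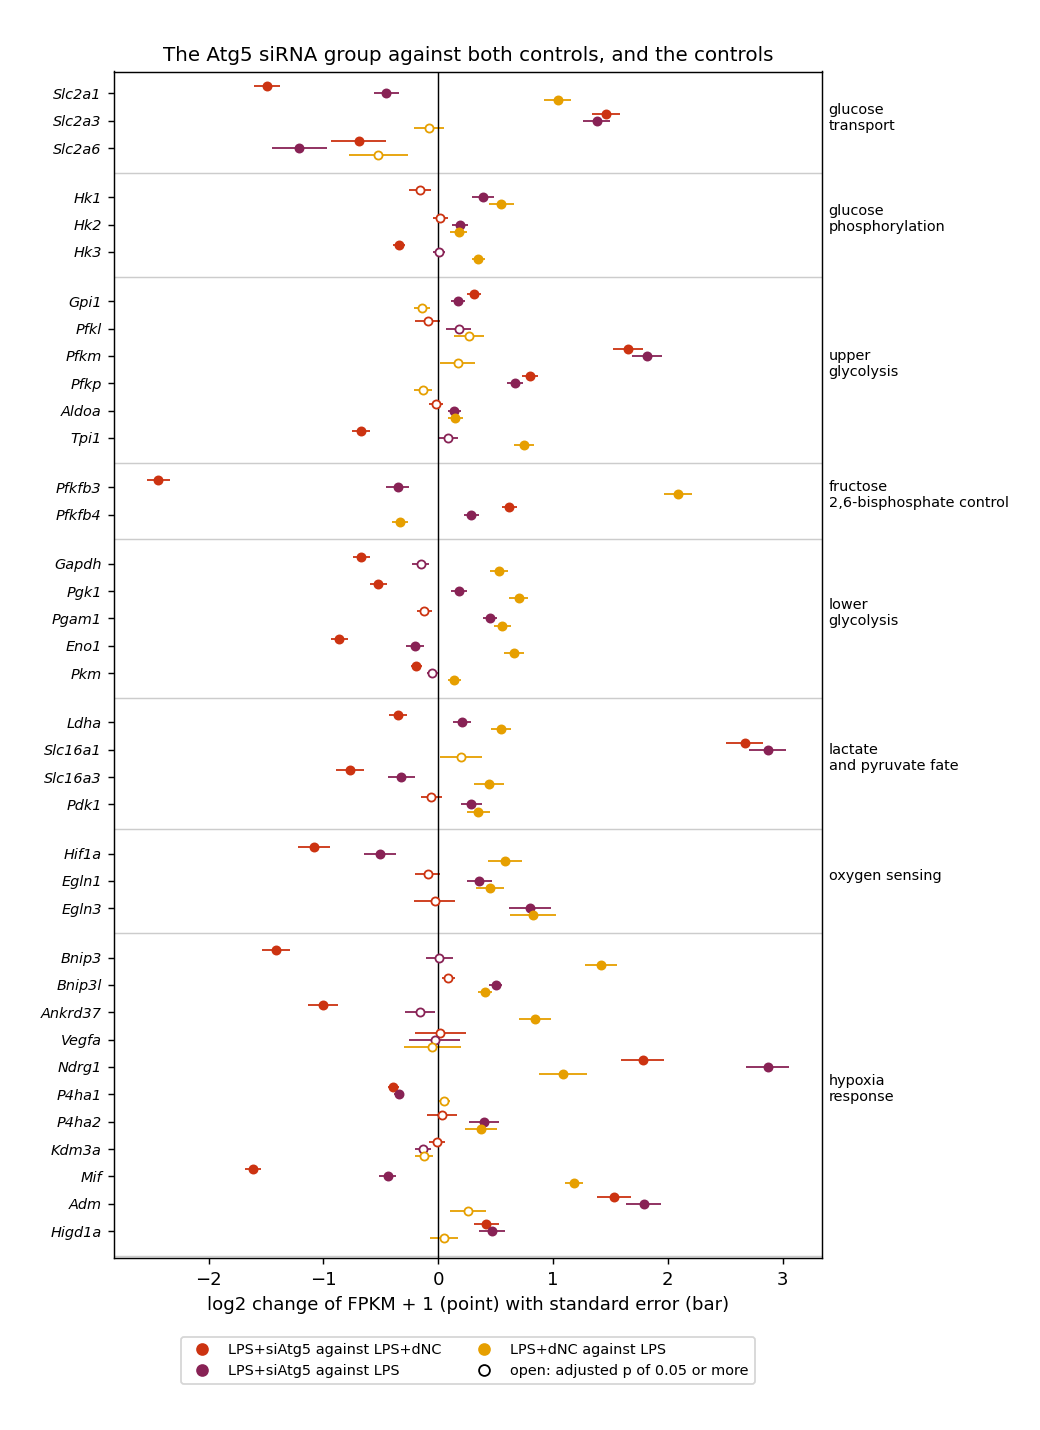
Each row is a gene and each point its log2 change of FPKM + 1 with its standard error, for LPS+siAtg5 against LPS+dNC (red), LPS+siAtg5 against LPS (purple) and LPS+dNC against LPS (orange). Filled points were called. Slc2a1, Pfkfb3, Hif1a and Mif lie left of 0 against both controls, while Ldha and Pgk1 change sides (for both, the change against LPS turned negative under median-of-ratios scaling).

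Genes lower than in both controls included the glucose transporter gene Slc2a1, Pfkfb3 and Hif1a. Slc2a1 was at 27.49, 28.09, 26.96, 28.13 and 30.6 FPKM in LPS+siAtg5 and at 64.02, 85.94 and 97.84 in LPS+dNC (-1.49, SE 0.11, adjusted p = 1.37e-11), and its change against LPS was -0.45 (adjusted p = 0.00055). Pfkfb3 (chr2:11471433-11554077) was at 64.26 to 69.84 FPKM against 346.97, 366.7 and 398.76 (-2.44, SE 0.1, adjusted p = 2.3e-15), but only -0.35 below LPS (adjusted p = 0.00433), with the mean of LPS+dNC 4.27-fold that of LPS. Hif1a was at 56.99 to 60.22 FPKM against 86.05, 135.33 and 167.39 (-1.08, adjusted p = 2.4e-07) and -0.51 against LPS (adjusted p = 0.00221). Mif fell by 1.61 against LPS+dNC and by 0.44 against LPS on the log2 scale, and Slc16a3 by 0.77 and 0.32. The 5 Slc16a3 values of 30.45 to 38.08 FPKM overlapped those of LPS (37.95 to 46.6). Eno1 (-0.86 and -0.20), P4ha1 (-0.39 and -0.34) and Slc2a6 (-0.69 and -1.21) were also lower than in both. Against LPS, the calls of Eno1 and Slc16a3 were lost under at least 1 alternative. For Slc2a6 the LPS+dNC libraries spread from 21.14 over 36.2 to 70.6 FPKM, and the call was lost without replicate 1 (-0.25, adjusted p = 0.188).

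A further 6 genes were called lower against LPS+dNC and not against LPS on the deposited scale. Bnip3 was at 19.36 to 20.77 FPKM in LPS+siAtg5, against 40.55, 55.32 and 74.85 in LPS+dNC (-1.41, SE 0.12, adjusted p = 3.84e-10) and 17.13 to 22.66 in LPS (0.01, adjusted p = 0.927). Ankrd37 (-1.0 against LPS+dNC and -0.16 against LPS), Tpi1 (-0.67 and 0.09), Gapdh (-0.67 and -0.15), Hk3 (-0.34 and 0.01) and Pkm (-0.19 and -0.05) had the same form. Against LPS this depends on the scaling: by median of ratios Bnip3 (-0.33), Hk3 (-0.34), Tpi1 (-0.27), Gapdh (-0.5) and Pkm (-0.41) were called lower there too, and by quantiles Ankrd37 was (-0.84). Gapdh was also called lower than LPS without LPS replicate 1 or 2 or LPS+siAtg5 replicate 5 (-0.18 to -0.22), and Tpi1 higher with array weights (0.17), without LPS replicate 3 or without the 3 libraries that lie apart (0.2 for both). Under quantile normalization Gapdh was at 0.02 and Pkm at 0.31 against LPS+dNC, so the direction of these 2 depends on the scaling. Ldha was 0.35 lower than in LPS+dNC and 0.21 higher than in LPS, with overlapping libraries in both comparisons. Whether these genes differ between the 2 comparisons is the contrast LPS+dNC against LPS, in which Bnip3 (1.42), Ankrd37 (0.84), Tpi1 (0.75), Ldha (0.55), Gapdh (0.53), Hk3 (0.35) and Pkm (0.14) were each called higher, although Pkm turned to -0.23 under quantile normalization.

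Higher than in both controls were Slc16a1, Ndrg1, Adm, Pfkm, Slc2a3, Pfkp, Pfkfb4, Higd1a and Gpi1. Slc16a1 (chr3:104638668-104658462) rose most: it was at 25.19, 24.87, 23.07, 25.96 and 24.97 FPKM in LPS+siAtg5 and at 1.62, 3.37 and 4.82 in LPS+dNC (2.67, SE 0.16, adjusted p = 5.75e-13; 2.87 against LPS). Ndrg1 was at 13.13 to 15.62 FPKM against 3.03, 3.31 and 3.72 (1.78, adjusted p = 1.62e-08). Adm was at 12.2 to 16.03 FPKM against 2.52, 5.5 and 5.17 (1.53), and Pfkm at 9.45 to 10.99 against 2.06, 3.42 and 2.41 (1.65). Slc2a3, at 2.72 to 3.53 FPKM against 0.3, 0.6 and 0.58, rose by 1.46. The changes of Higd1a (0.42) and Gpi1 (0.31) were lost under median-of-ratios scaling, where Gpi1 was at -0.01, and Pfkfb4 then turned to -0.04 against LPS. Slc16a1 and the muscle phosphofructokinase are also known from astrocytes and other glia. Against LPS+dNC, 12 of 12 astrocyte markers tested rose in the same 5 libraries (median 2.58), as did 6 of 7 oligodendrocyte lineage markers tested (median 1.23). So did 7 of 7 neuron markers (2.02), 6 of 9 fibroblast, mural and endothelial markers (1.23) and 11 of 13 microglia markers (0.53). Over all genes, 59.6% were higher, at a median of 0.34. Ldhb, the lactate dehydrogenase subunit of oxidative tissues, was higher as well, at 25.44 to 30.65 FPKM against 1.34 to 7.12. Aldoc, the aldolase of astrocytes, rose by 3.69. The part of these cell type markers in the results was not tested.

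The members whose change in LPS+siAtg5 against LPS+dNC did not pass the test were Hk1, Hk2, Pfkl, Aldoa, Pgam1, Pdk1, Egln1, Egln3, Bnip3l, Vegfa, P4ha2 and Kdm3a. For Pfkl, for example, LPS+siAtg5 gave 26.92 to 36.16 FPKM against 24.55, 35.43 and 35.54 (-0.09, 95% interval -0.33 to 0.14), and for Egln3 1.93 to 2.42 against 0.78, 2.81 and 3.99 (-0.03, -0.41 to 0.35). LPS+dNC replicate 1 was the lowest of its group for both, and without it Egln1, Egln3, Hk1, Pdk1 and Pfkl were called lower. All 12 members named here were called under at least 1 alternative, so none is shown to be unchanged.

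The effect of the Atg5 siRNA and that of Baf A1 were then compared directly, as the difference of the 2 changes, which share no library. The difference was called for 35 of 37 members, 28 lower and 7 higher for the siRNA, against 72.7% of all genes called, 20.4% lower and 52.3% higher, with a median of -1.23 against 0.30. It was widest for Mif (-2.80, SE 0.1, adjusted p = 4.05e-16), Bnip3 (-2.72), Slc16a3 (-2.66), Pfkfb3 (-2.49) and Slc2a1 (-2.43). On the other side were Slc16a1 (2.34, SE 0.22, adjusted p = 4.62e-09), Ndrg1 (1.38), Slc2a3 (1.2), Pfkm (1.15), Pfkfb4 (0.62), Adm (0.53) and Kdm3a (0.35). Pfkp (0.09, interval -0.11 to 0.29) and Vegfa (-0.08, -0.74 to 0.58) did not pass the test. Of the 35 calls, 31 were kept under every alternative, and Adm, Higd1a, Kdm3a and Pkm were not. The contrast contains LPS+dNC, for which processing and group cannot be told apart, and no alternative replaced that group. Pfkfb3 averaged 86.8 FPKM in LPS, 88.9 with Baf A1, 371 in LPS+dNC and 67.3 in LPS+siAtg5. Bnip3 averaged 20.08, 50.94, 56.91 and 20.15 FPKM in the same order. The differences of these genes therefore also hold the distance of LPS+dNC from LPS.

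Across all 5 groups, CLA had the highest mean for 22 of 37 members and LPS+siAtg5 for 5, while LPS had the lowest for 19 and LPS+siAtg5 for 11. The same ranks were not counted over all genes, so these counts are only a description on the deposited scale. On that scale, 64.1% of all calls against LPS were higher with CLA and 79.7% in LPS+siAtg5. The balance within gene families shifted with these levels, and it is given as shares of summed FPKM with no test. Slc2a1 made up 41.4% ± 2.3 of the 3 glucose transporter genes in LPS, 45.7% ± 1.2 with Baf A1 and 65.7% ± 2.9 with CLA. Pfkl made up 67.7% ± 1.1 of phosphofructokinase in LPS, 76.9% ± 2.0 with Baf A1 and 52.0% ± 3.0 in LPS+siAtg5, where Pfkm reached 18.2% ± 1.1. Slc16a1 held 5.72% ± 0.51 of the lactate transporter FPKM in LPS, 2.12% ± 0.082 with Baf A1, 1.81% ± 0.15 with CLA and 42.8% ± 2.5 in LPS+siAtg5. Ldhb was 1.07% ± 0.20 of lactate dehydrogenase in LPS, 0.205% ± 0.051 with CLA and 7.55% ± 0.70 in LPS+siAtg5.

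**Figure D5:**
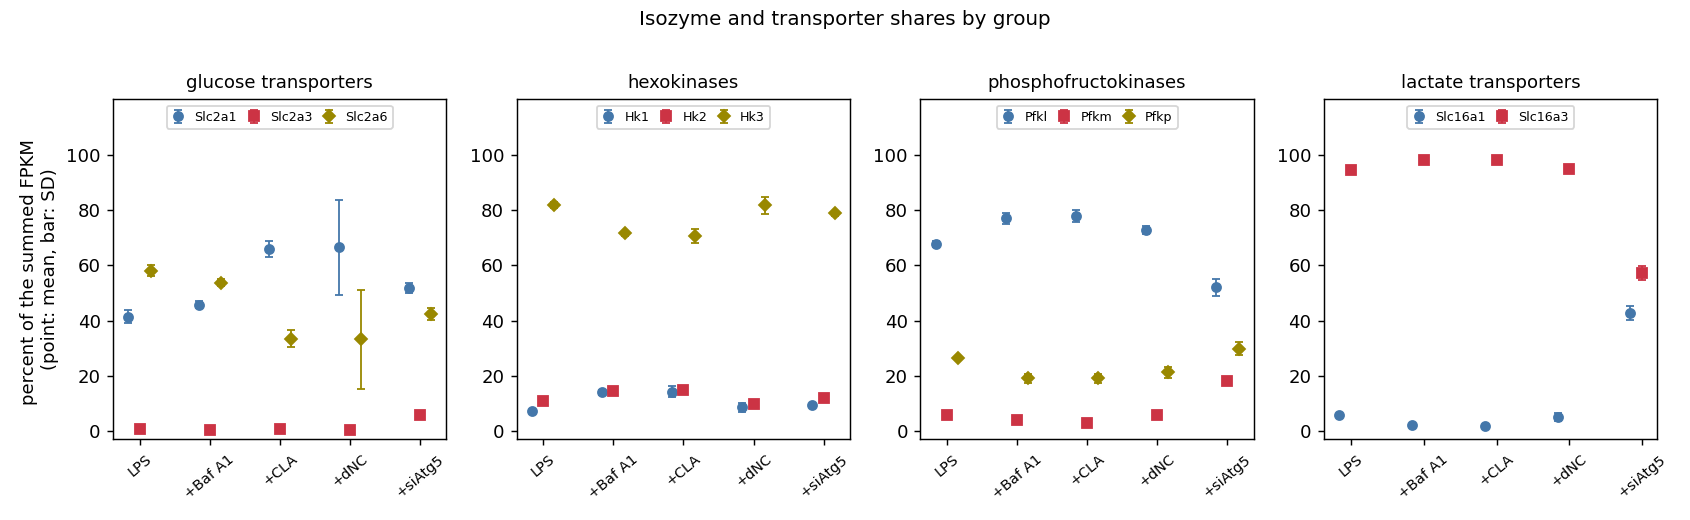
Each panel shows a gene family, with points at the mean percent of the family's summed FPKM in each group and bars of 1 SD. Hk3 stays the main hexokinase in every group (70.6% to 81.7%), the Slc2a1 and Slc2a6 shares spread widely in LPS+dNC, and Slc16a1 reaches 42.8% in LPS+siAtg5.

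Other genes of the pathway, outside the 37, followed only in part. Of 34 tested genes of glycolysis, glycogen and pyruvate use, 16 rose and 7 fell with Baf A1 (median 0.19), beside 32.7% and 25.1% of all genes (0.04). With CLA 19 rose and 4 fell (0.22), beside 40.4% and 22.6% (0.09). In LPS+siAtg5 against LPS+dNC 25 rose and 2 fell (0.55), beside 59.6% and 21.6% (0.34). Bsg, the chaperone of the lactate transporters, went from 141 FPKM in LPS to 251 with Baf A1 (0.83) and 338 with CLA (1.26). Pgm1, a phosphoglucomutase that links glycogen to glycolysis, went from 15.6 to 54.2 FPKM with Baf A1 (1.73) and 47.7 with CLA (1.55). In LPS+dNC Pgm1 and Pgm2 stood at 7.22 and 21.8 FPKM, against 15.6 and 7.68 in LPS. RefSeq lists each of the 2 symbols as an older name of the other gene, so which gene those values belong to is uncertain, and their changes of 1.6 and -0.83 against LPS+dNC are too. Of the pyruvate dehydrogenase subunits, Dlat rose (0.72 with Baf A1 and 0.59 with CLA), as did Pdha1 (0.22 and 0.43), while Dld fell with Baf A1 (-0.13) and was at -0.04 with CLA. Slc16a6, a monocarboxylate transporter gene, fell with Baf A1 (-0.79), as did Pdp1 (-0.28) and Slc2a9 (-0.21), and Emb fell with CLA (-0.40). In LPS+siAtg5 against LPS+dNC the smallest adjusted p among rises, after Pgm1, belonged to Pgm2l1 (1.98), Pdp1 (1.78) and Pcx (2.13), the pyruvate carboxylase gene, and Minpp1 fell (-0.23).

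Of 41 tested genes of the HIF pathway and hypoxia response outside the 37, 23 rose and 5 fell with Baf A1 (median 0.32) and 23 and 8 with CLA (0.36), beside the same shares of all genes. In LPS+siAtg5 against LPS+dNC 22 rose and 13 fell (0.23), and with 59.6% of all genes higher at a median of 0.34 the rises are no result about this list. P4hb, the partner of both P4ha subunits, went from 156 FPKM in LPS to 407 with Baf A1 (1.38, adjusted p = 1.38e-16) and 412 with CLA (1.4). The glycogen synthase gene Gys1 rose by 1.42 and 1.67, and Fam162a, a mitochondrial protein gene, by 2.0 and 2.33. Falls with Baf A1 were Rsbn1 (-0.63), Wsb1 (-0.72), Kdm4c (-0.46) and Cited2 (-0.26), the last a brake on HIF, and with CLA Cited2 (-0.50), Rsbn1 (-0.39), Trf (-0.45) and Ccng2 (-0.19). In LPS+siAtg5 against LPS+dNC, Edn1, the vasoconstrictor endothelin, fell from 53.0 to 5.62 FPKM (-3.0, adjusted p = 4.27e-15), Hilpda, a lipid droplet protein, from 29.3 to 5.59 (-2.19), Fam162a by 1.2 and Cited2 by 0.76 on the log2 scale. Against LPS, with Edn1 at 9.44 and Hilpda at 7.60 FPKM, the changes were -0.64 and -0.38. Rises were Lox (2.61), Pygl (2.18), Plod2 (1.98) and P4hb (0.53). Lox, which crosslinks collagen, and Plod2, which modifies it, are expressed by fibroblasts. Fibroblast markers such as Col1a1 were higher in the same libraries, while Dcn, at 6.21 FPKM, was above LPS+dNC (2.01) but below LPS (8.63). With Baf A1, Lox averaged 55.2 FPKM against 14.8 in LPS, and Plod2 0.906 against 0.443. Summed fibroblast, mural and endothelial markers were at 24.0 to 30.7 FPKM with Baf A1 and 26.8 to 28.0 in LPS, but single markers moved apart. Of 9 tested, 4 rose and 1 fell, beside 32.7% and 25.1% of all genes. Col1a1 averaged 2.23 FPKM with Baf A1 against 0.477 in LPS, Col1a2 2.09 against 0.33 and Col3a1 2.49 against 0.517. The endothelial marker Kdr averaged 5.38 against 12.1. The part of these markers was not tested.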

How the data were processed

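RNA of cultured microglia, for 22 libraries, was enriched for mRNA with oligo(dT) beads and sequenced on an Illumina instrument, per the labels' protocols. The authors deposited FPKM values per gene symbol, per the file headers, which name the unit for 19 libraries and none for the 3 LPS+dNC libraries. CASAVA 1.7, fastp 0.18.0, Bowtie2 2.2.8, HISAT2 and StringTie 1.3.1 are named in the submitters' processing notes, while for the build and annotation, nothing is given in the sources used here. Fragment counts were not used here, so no count test was run. In the low values of the 19 libraries, 48.8% to 75.4% lay within 0.1 fragments of a whole multiple, which gave an estimate of 17.5 to 25.8 M fragments per library.

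A gene was tested if 3 or more libraries reached 1 FPKM. The values log2(FPKM + 1) were fitted with limma 3.58.1 in R 4.3.3, with 5 group means over all 22 libraries and a mean-dependent, robust prior variance. A fold change on this scale understates the change of low genes. P-values were adjusted by Benjamini-Hochberg over all 11070 genes tested, and the procedure was tested on simulated data. Nothing in the labels ties replicates to separate cultures, so p-values speak only of the spread among these libraries, which could be technical. The members, the gene lists and the tests were chosen with earlier results of these data known. All members are described. Of the other lists, the text names up to 4 genes with the smallest adjusted p in each direction. A gene that this rule would name is not reported here. Other genes are named where a result turns on them and were chosen after their values were seen. Shared sequence is the percent of a gene's 50-base words found in other GENCODE transcripts on GRCm38. Alternatives were 2 scalings, other pseudocounts and filters, array weights, a replicate block, fits on the compared groups alone, and fits leaving out single libraries or the 3 that lie apart.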

Additional observations from a re-analysis of the deposited data

Results flagged for a closer look

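Within groups of 5 or 6 libraries, 17 of 111 gene and group combinations held a library farther from the rest than Dixon's limit, where chance gives about 1 in 20. LPS+CLA replicate 2 accounted for 11 of them. It was the highest CLA library for Slc2a1 (88.17 FPKM), Slc2a6 (57.51), Hk1 (51.16), Pfkfb3 (155.08), Pgam1 (601.36), Pkm (2237.25), Slc16a1 (4.87), Slc16a3 (228.17), Hif1a (210.75) and P4ha1 (99.84), and the lowest for Ndrg1 (6.49). The lowest libraries with Baf A1 stood apart for Gpi1 (replicate 3, 274.28 FPKM), Egln1 (replicate 3, 15.75), Pfkfb3 (replicate 1, 85.06) and P4ha1 (replicate 2, 87.6). LPS+siAtg5 replicate 5 was the highest for Pfkl (36.16 FPKM) and Pdk1 (8.09).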

How the results depend on the processing

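Over all members, comparisons and alternatives, 7881 of 8260 values kept direction and call, 202 lost the call, 151 gained one and 26 turned. For LPS+siAtg5 against LPS, median-of-ratios scaling turned Aldoa (-0.22), Bnip3 (-0.33), Gpi1 (-0.18), Hk2 (-0.15), Hk3 (-0.34), Ldha (-0.15), Pdk1 (-0.02), Pfkfb4 (-0.04), Pgk1 (-0.17) and Tpi1 (-0.27), and quantile normalization Egln1 (-0.01), Egln3 (-0.0), P4ha2 (-0.39), Pdk1 (-0.15) and Pfkfb4 (-0.02). Against LPS+dNC, the first turned Bnip3l (-0.22), Gpi1 (-0.01) and Hk2 (-0.3), the second Aldoa (0.4), Gapdh (0.02), Hk2 (-0.15), P4ha2 (-0.72), Pkm (0.31) and Vegfa (-0.84). For LPS+dNC against LPS, quantile normalization turned Aldoa (-0.06) and Pkm (-0.23). Cause was not tested. Median-of-ratios scaling gave 25 members lower in LPS+siAtg5 against LPS+dNC, 8 higher and 18 lower against LPS (11 higher under quantile normalization), and 9 higher in CLA against Baf A1. For LPS+dNC against LPS, 15 members were higher in a fit of these groups alone, and the number lower was 2 under median-of-ratios scaling, 3 under quantile normalization, 3 with array weights and 2 without the 3 libraries that lie apart. Among the other glycolysis genes, the number lower with Baf A1 was 4 under a 5 FPKM filter. With CLA it was 1 under that filter and 7 under either scaling. For LPS+siAtg5 against LPS+dNC it was 4 with no filter, 7 under median-of-ratios scaling and 8 under quantile normalization. For the other HIF genes, 13 rose there under the 5 FPKM filter and 14 under quantile normalization.

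Leaving out 1 library at a time gave 1 to 2 members lower with CLA, 1 to 3 lower in LPS+dNC against LPS, 10 to 19 higher in CLA against Baf A1, and 4 to 7 other glycolysis genes lower with Baf A1. Replicate numbers do not pair the samples (correlations of deviations -0.113 to 0.091). With the replicate block 28 members rose and 1 fell with Baf A1, 29 and 1 with CLA, and 9 and 16 for LPS+siAtg5 against LPS+dNC.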
